A study of Mus musculus with 8 samples.

Results

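The 42 genes described here make up the core of the cell cycle and of DNA replication, and were chosen by symbol from the 24963 genes of the table. They fall into 8 cyclins and kinases of G1, 6 inhibitors of cyclin-dependent kinases, 14 genes of S phase and 14 genes of M phase. Their mRNA abundance was compared in whole uteri at gestation day (GD) 3.5 between 4 Nr2f2 f/f mice, the controls, which were homozygous for the floxed Nr2f2 allele and lacked Cre, and 4 Nr2f2 d/d mice, which had the same floxed alleles together with Pgr Cre/+. Vasectomized males were used for mating, so that the uteri held no embryos, and each uterus gave 1 library. The labels give the C57B6/J strain and an age of 8 weeks, while the study's methods give the age as a range of months. In Nr2f2 d/d mice the Cre is knocked into 1 Pgr allele and deletes Nr2f2, which encodes an orphan nuclear receptor of the uterine stroma and myometrium, only in cells that express the progesterone receptor. Cre was absent from the controls, so the Cre allele and the loss of Nr2f2 cannot be told apart.

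A cell enters the cycle when D-type cyclins with CDK4 or CDK6, and then E-type cyclins with CDK2, release E2F transcription factors, which switch on the genes of DNA replication. Genes for mitosis follow later, with cyclin A, cyclin B and CDK1 at their centre, and small inhibitor proteins such as p21, p27 and p57 hold the kinases back. In the mouse uterus just before implantation, progesterone stops proliferation of the luminal epithelium while stromal cells divide, so mRNA of cycling cells in whole tissue comes from a mixture of compartments. In bulk tissue, fewer cycling cells and less of these mRNAs in each cycling cell cannot be told apart.

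Levels are FPKM, by definition fragment counts divided by gene length and by library size. The authors' own formula is not given in the sources used here. On that definition, levels can be compared between genes per length. Nr2f2 was 21.8 to 25.7 FPKM in the 4 Nr2f2 f/f libraries and 6.90 to 9.74 FPKM in the 4 Nr2f2 d/d libraries, a log2 fold change of -1.39 (limma adjusted p = 0.00549). Depth was about 61400000 to 92750000 fragments per library. Summed levels of 6 epithelial markers were 477 to 536 FPKM in Nr2f2 f/f and 638 to 743 FPKM in Nr2f2 d/d and those of 6 stromal markers were 1078 to 1307 FPKM and 1527 to 2379 FPKM, with 1 of 6 in each list (Krt8 and Dcn) higher in Nr2f2 d/d at a limma adjusted p under 0.05. The epithelial sums were carried by Krt8 and Krt19, while Krt18, Epcam and Cldn4 had log2 fold changes of 0.06, 0.06 and -0.05. The stromal sums were carried by Dcn and Col1a1, and 3 of the 6 stromal markers, Vim, Pdgfra and Hoxa11, had log2 fold changes of -0.66, -0.20 and -0.18, none past the test. Those of 6 smooth muscle markers were 1225 to 1741 FPKM and 985 to 2449 FPKM. The 6 ovarian markers summed to 0.999 to 1.65 FPKM in Nr2f2 f/f and 1.39 to 3.32 FPKM in Nr2f2 d/d, highest in Nr2f2 d/d replicate 3 and mostly through Inhba and Gdf9, while Fshr was listed at 0 in every library. The sum of 6 endothelial markers was 183 to 254 FPKM in Nr2f2 f/f and 109 to 137 FPKM in Nr2f2 d/d, and 4 of these 6 were lower in Nr2f2 d/d at an adjusted p under 0.05. Sums of 8 leukocyte markers were 39.0 to 60.3 FPKM and 59.6 to 84.9 FPKM, with S100a8 at 0.953 to 5.37 FPKM and 7.76 to 17.1 FPKM and a log2 fold change of -0.03 for Ptprc. The part of these cell type markers in the values below was not tested.

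No member of the cell cycle set differed between the genotypes past an adjusted p of 0.05 in the limma test, against 2.62% of the 14323 genes tested. None of the 41 members tested passed the study's own threshold either, an unadjusted p under 0.05 with a fold change of at least 1.4, which 8.8% of all genes tested passed. This threshold was applied here to the limma fit, whereas the study applied it to DESeq2 on counts. The study's own calls on these genes can therefore differ. At an unadjusted p under 0.05 alone there was 1 member, Ccnd3, against 21.2% of all genes tested. Ccnd3 was also the 1 tested member whose genotype groups did not overlap, while 15.4% of all genes tested had groups that did not overlap and 5.49% had such groups with Nr2f2 d/d higher. The remaining member, Cdkn2a, had a mean under 0.5 FPKM and was not tested in this fit.

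The log2 fold change was above 0 in 28 and below 0 in 13 of the 41 members tested, with a median of 0.11, against a median of -0.02 over all genes tested. These small differences came with wide errors. The median half-width of the 95% interval was 0.86 on the log2 scale for the 28 S and M phase members and 0.29 for all genes tested. All 28 intervals held 0, and 24 of the 28 reached a fold change of 1.4 in both directions. The data therefore set only loose bounds on a genotype difference in these genes. The direction also turned with 1 library left out. Without Nr2f2 f/f replicate 2, or without Nr2f2 d/d replicate 3, 11 of the 41 members were above 0, with a median of -0.16. In the plot of genotype differences, the G1 cyclins and kinases hold both narrow and wide intervals. Their median half-width was 0.47, the smallest of the roles, but Ccnd1 and Ccne1 had intervals of -0.70 to 1.37 and -0.76 to 1.39.

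**Figure D1:**
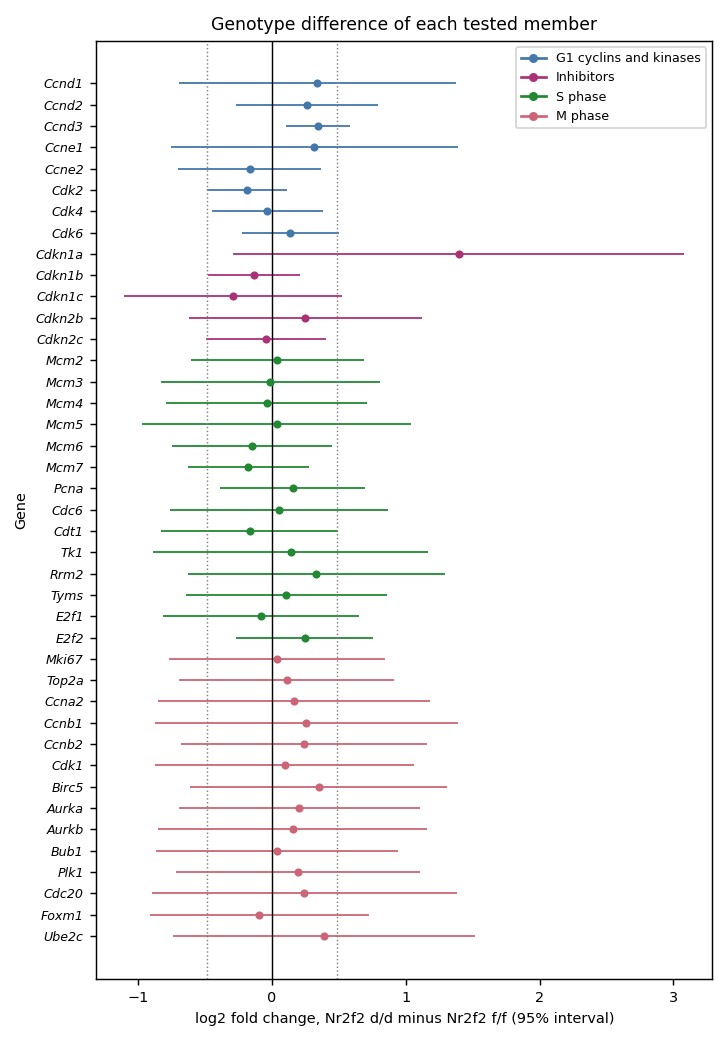
Log2 fold change of each of the 41 tested members, Nr2f2 d/d minus Nr2f2 f/f, on log2(FPKM + 0.5), with its 95% interval from limma (n = 4 and 4), coloured by role. Dotted lines mark a fold change of 1.4, and the interval of Ccnd3 is the 1 that does not hold 0.

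Among the G1 cyclins and kinases, 5 of 8 had a log2 fold change above 0 and 3 below, with a median of 0.20. Ccnd3 (GRCm38 chromosome 17, 47505051 to 47599691, plus strand) encodes cyclin D3, a partner of CDK4 and CDK6. Its level was 25.1, 21.7, 25.6 and 29.1 FPKM in Nr2f2 f/f replicates 1 to 4, against 30.2, 36.1, 33.7 and 29.3 FPKM in Nr2f2 d/d replicates 1 to 4. Every Nr2f2 d/d library lay above every Nr2f2 f/f library, although Nr2f2 f/f replicate 4 and Nr2f2 d/d replicate 4 were nearly level. The log2 fold change was 0.34 ± 0.106 (SE, n = 4 and 4), with an interval of 0.10 to 0.59. It did not pass the adjustment over all genes (limma adjusted p = 0.121), and the exact permutation test gave 0.0286, the smallest p that 4 against 4 libraries allow.

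Ccnd1 encodes cyclin D1, the D-type cyclin best known as a target of growth factor and estrogen signals. Its level was 19.4, 13.3, 20.7 and 15.9 FPKM in Nr2f2 f/f replicates 1 to 4, against 15.3, 18.3, 61.6 and 12.7 FPKM in Nr2f2 d/d replicates 1 to 4. A single library, Nr2f2 d/d replicate 3, was at 3.99 times the mean of the other Nr2f2 d/d libraries, and these others lay within or just below the range of the controls. The log2 fold change of 0.34 ± 0.451 (SE) had a limma adjusted p of 0.704. It was -0.16 without Nr2f2 d/d replicate 3 and 0.59 without Nr2f2 d/d replicate 4. Fragments of Ccnd1 may be shared with LTO1 on the other strand, which covers 23.4% of its exon bases, and the strand setting of the counting is not given in the sources used here.

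Ccnd2, the gene of cyclin D2, was measured at 6.98, 5.73, 6.90 and 8.29 FPKM in Nr2f2 f/f replicates 1 to 4 and at 7.40, 8.98, 13.1 and 5.66 FPKM in Nr2f2 d/d replicates 1 to 4. The groups overlapped, since Nr2f2 d/d held both the highest and the lowest of the 8 values (log2 fold change 0.26 ± 0.230 (SE), limma adjusted p = 0.545). The log2 fold change was 0.06 without Nr2f2 d/d replicate 3 and 0.44 without Nr2f2 d/d replicate 4. Cdk4, the kinase partner of the D-type cyclins, was the most abundant of the 42 members per length. It was at 143, 92.9, 133 and 145 FPKM in Nr2f2 f/f replicates 1 to 4 and at 120, 111, 162 and 108 FPKM in Nr2f2 d/d replicates 1 to 4. The extremes were Nr2f2 f/f replicate 2 and Nr2f2 d/d replicate 3, with the other 6 libraries between them (log2 fold change -0.04 ± 0.180 (SE), limma adjusted p = 0.930). Of the exon bases of Cdk4, 19.7% overlap Tspan31 on the other strand.

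Cdk2, the kinase that acts with cyclins E and A, was at 20.9, 15.0, 17.4 and 19.1 FPKM in Nr2f2 f/f replicates 1 to 4 and at 16.7, 15.0, 18.4 and 13.2 FPKM in Nr2f2 d/d replicates 1 to 4. The groups overlapped, and the log2 fold change was -0.19 ± 0.131 (SE; limma adjusted p = 0.443). The E-type cyclins were low per length, with means of 3.75 ± 2.09 and 4.49 ± 2.21 FPKM for Ccne1 (SD, n = 4) in control and Nr2f2 d/d uteri. Ccne2 means were 1.37 ± 0.575 and 1.123 ± 0.280 FPKM (SD, n = 4). For Cdk6, the other partner of the D-type cyclins, they were 2.83 ± 0.698 and 3.13 ± 0.385 FPKM (SD, n = 4), far below Cdk4 in both genotypes. Of these 3, Ccne1 varied most, 7.31-fold from Nr2f2 f/f replicate 2 to Nr2f2 d/d replicate 3.

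Of the 5 inhibitors tested, 2 had a log2 fold change above 0 and 3 below, with a median of -0.04. With no filter on low values, which adds Cdkn2a, 3 of the 6 were above 0 and the median was 0.10. Cdkn1a (GRCm38 chromosome 17, 29090976 to 29100727, plus strand) encodes p21, a general inhibitor of cyclin-dependent kinases and a well-known target of p53. Its level was 3.35, 3.67, 13.2 and 4.30 FPKM in Nr2f2 f/f replicates 1 to 4, against 6.96, 17.0, 60.0 and 5.92 FPKM in Nr2f2 d/d replicates 1 to 4. All Nr2f2 d/d libraries were above 3 of the 4 controls, but Nr2f2 f/f replicate 3 was above Nr2f2 d/d replicates 1 and 4. Over the 8 libraries the level ranged 17.9-fold, the widest range of the 42 members. The log2 fold change of 1.4 ± 0.734 (SE) had an interval of -0.29 to 3.08 and a limma adjusted p of 0.314. It was 0.73 without Nr2f2 d/d replicate 3.

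Cdkn1b and Cdkn1c encode p27 and p57, the other members of the p21 family. Cdkn1b, the most abundant inhibitor per length, was at 22.6, 32.1, 19.3 and 21.1 FPKM in Nr2f2 f/f replicates 1 to 4 and at 21.3, 21.0, 19.6 and 23.0 FPKM in Nr2f2 d/d replicates 1 to 4. Apart from Nr2f2 f/f replicate 2, which was highest, the libraries were close together (log2 fold change -0.13 ± 0.149 (SE), limma adjusted p = 0.639). Cdkn1c was at 20.8, 7.50, 19.2 and 28.8 FPKM in Nr2f2 f/f replicates 1 to 4 and at 15.0, 14.3, 11.7 and 15.2 FPKM in Nr2f2 d/d replicates 1 to 4. Here the same control library was the lowest of all 8, while the other 3 controls lay above every Nr2f2 d/d library. The log2 fold change was -0.29 ± 0.355 (SE; limma adjusted p = 0.677) with all libraries and -0.67 without Nr2f2 f/f replicate 2 (limma adjusted p = 0.0767). Without Nr2f2 f/f replicate 4, the highest control, it was -0.05 (limma adjusted p = 0.953). Of the exon bases of Cdkn1c, 30.7% overlap the predicted gene Gm44732 on the other strand.

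The INK4 inhibitors bind CDK4 and CDK6 directly. Cdkn2a, the locus of p16 and ARF (GRCm38 chromosome 4, 89274471 to 89294653, minus strand), was measured at 0.153, 0.272, 0.226 and 0.229 FPKM in Nr2f2 f/f replicates 1 to 4 and at 0.570, 0.321, 0.408 and 0.601 FPKM in Nr2f2 d/d replicates 1 to 4. All Nr2f2 d/d values were above all controls, with a ratio of means of 2.16 and an exact permutation p of 0.0286 (n = 4 and 4). The gene rested on an estimated 11 to 64 fragments per library, and with no filter on low values its log2 fold change of 0.43 had a limma adjusted p of 0.0905. The FPKM of this locus do not separate p16 from ARF. Cdkn2b was at 1.08 ± 0.882 and 1.30 ± 0.706 FPKM, and Cdkn2c at 9.56 ± 1.87 and 9.33 ± 2.54 FPKM (SD, n = 4), with the controls first, and neither passed the test.

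**Figure D2:**
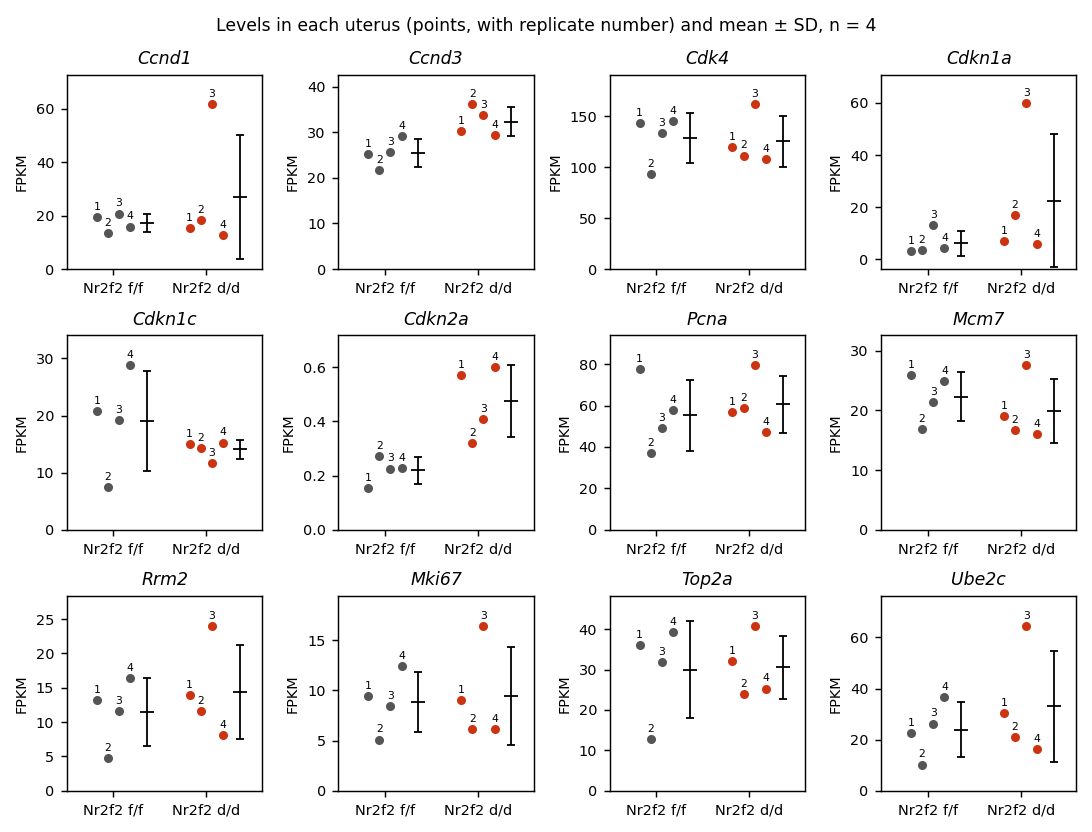
FPKM of 12 members in each of the 8 uteri, with replicate numbers at the points and the mean ± SD (n = 4) beside each genotype. Values of Ccnd3 and Cdkn2a do not overlap between the genotypes, and in Ccnd1, Cdkn1a and Ube2c Nr2f2 d/d replicate 3 is far above all other libraries.

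Among the S phase genes, 8 of 14 had a log2 fold change above 0 and 6 below, with a median of 0.04 and a range of -0.18 to 0.33. The 6 subunits of the MCM helicase, which unwinds DNA at the replication fork, were expressed at similar levels per length, with means over the 8 libraries of 13.1 FPKM for Mcm5 to 21.0 FPKM for Mcm7. Mcm7 was at 25.8, 16.8, 21.4 and 24.9 FPKM in Nr2f2 f/f replicates 1 to 4 and at 19.1, 16.7, 27.6 and 16.0 FPKM in Nr2f2 d/d replicates 1 to 4. The groups overlapped, with 2 Nr2f2 d/d libraries below every control and replicate 3 above every control (log2 fold change -0.18 ± 0.196 (SE), limma adjusted p = 0.640). The other 5 subunits had log2 fold changes of -0.15 for Mcm6 to 0.04 for Mcm2.

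Pcna, the sliding clamp of the replication fork and the most abundant S phase member per length, was at 77.5, 37.0, 49.1 and 57.7 FPKM in Nr2f2 f/f replicates 1 to 4 and at 56.9, 58.8, 79.5 and 47.1 FPKM in Nr2f2 d/d replicates 1 to 4. The ranges of the genotypes overlapped over most of their span (log2 fold change 0.15 ± 0.236 (SE), limma adjusted p = 0.747). Rrm2, the subunit of ribonucleotide reductase that limits the making of deoxynucleotides, was at 13.2, 4.75, 11.6 and 16.4 FPKM in Nr2f2 f/f replicates 1 to 4 and at 13.9, 11.6, 24.0 and 8.13 FPKM in Nr2f2 d/d replicates 1 to 4. The low control was replicate 2 and the high Nr2f2 d/d library was replicate 3 (log2 fold change 0.33 ± 0.418 (SE), limma adjusted p = 0.684). The other nucleotide enzymes, Tk1 and Tyms, had log2 fold changes of 0.14 and 0.11.

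E2f2, one of the activating E2F factors, was at 1.23, 0.753, 1.70 and 1.53 FPKM in Nr2f2 f/f replicates 1 to 4 and at 1.86, 1.43, 2.16 and 1.07 FPKM in Nr2f2 d/d replicates 1 to 4. It had the smallest unadjusted p of the 28 S and M phase members, but its groups overlapped (log2 fold change 0.25 ± 0.223 (SE), limma adjusted p = 0.561). E2f1 was at 4.03 ± 1.52 and 3.69 ± 1.27 FPKM in Nr2f2 f/f and Nr2f2 d/d (SD, n = 4). Cdc6 and Cdt1, which load the MCM helicase onto origins, had log2 fold changes of 0.06 and -0.17. For each of these 3 the difference was smaller than its standard error.

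Of the M phase genes, 13 of 14 had a log2 fold change above 0, with a median of 0.18 and a range of -0.09 to 0.39, and Foxm1 was the exception. Every one of these differences was smaller than its standard error, and their limma adjusted p-values lay between 0.667 and 0.970. Leaving out Nr2f2 f/f replicate 2 left 3 of the 14 above 0 (median -0.095). Leaving out Nr2f2 d/d replicate 3 left 2 of the 14 above 0 (median -0.18). Mki67 encodes the nuclear antigen Ki-67, used to mark cells in cycle. Its level was 9.41, 5.09, 8.44 and 12.4 FPKM in Nr2f2 f/f replicates 1 to 4, against 9.0, 6.17, 16.4 and 6.14 FPKM in Nr2f2 d/d replicates 1 to 4. The lowest value was in a control and the highest in an Nr2f2 d/d library, with the other 6 values intermixed. The log2 fold change was 0.04 ± 0.351 (SE), with an interval of -0.77 to 0.84 (limma adjusted p = 0.963).

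Top2a, the topoisomerase that untangles replicated chromosomes, was the most abundant M phase member per length. It was at 36.1, 12.8, 31.9 and 39.4 FPKM in Nr2f2 f/f replicates 1 to 4 and at 32.1, 24.0, 40.8 and 25.3 FPKM in Nr2f2 d/d replicates 1 to 4. Means of both genotypes were nearly equal, at 30.02 ± 11.9 and 30.5 ± 7.71 FPKM (SD, n = 4; limma adjusted p = 0.885). Ube2c, the ubiquitin-conjugating enzyme of the anaphase-promoting complex, was at 22.6, 10.2, 26.3 and 36.7 FPKM in Nr2f2 f/f replicates 1 to 4 and at 30.3, 21.0, 64.5 and 16.3 FPKM in Nr2f2 d/d replicates 1 to 4. It had the widest range of the M phase members, 6.32-fold, from Nr2f2 f/f replicate 2 to Nr2f2 d/d replicate 3 (log2 fold change 0.39 ± 0.491 (SE), limma adjusted p = 0.687). Tnnc2 on the other strand covers 22.8% of its exon bases.

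Birc5, the survivin subunit of the chromosomal passenger complex, was at 6.32, 2.72, 6.56 and 9.93 FPKM in Nr2f2 f/f replicates 1 to 4 and at 7.37, 5.70, 14.9 and 5.13 FPKM in Nr2f2 d/d replicates 1 to 4. Ccnb2, a B-type cyclin, was at 12.1, 7.25, 11.99 and 15.99 FPKM in Nr2f2 f/f replicates 1 to 4 and at 14.3, 8.95, 29.98 and 8.61 FPKM in Nr2f2 d/d replicates 1 to 4. In both genes the groups overlapped, with the same control library lowest and the same Nr2f2 d/d library highest (log2 fold changes 0.35 ± 0.417 and 0.24 ± 0.401 (SE), limma adjusted p = 0.667 and 0.774). The other 9 M phase members had means over the 8 libraries of 3.20 FPKM for Bub1, a kinase of the spindle checkpoint, to 13.1 FPKM for Cdc20, which activates the anaphase-promoting complex. The cyclins Ccna2 and Ccnb1 had log2 fold changes of 0.17 and 0.26, and their kinase Cdk1 had 0.09. The mitotic kinases Aurka, Aurkb and Plk1 had 0.20, 0.15 and 0.19. Foxm1, a transcription factor that activates many genes of mitosis, was at 4.94 ± 1.56 and 4.81 ± 2.57 FPKM in the controls and in Nr2f2 d/d (SD, n = 4).

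What the S and M phase members shared was their lowest and their highest library. Nr2f2 f/f replicate 2 was the lowest of the 8 libraries in 27 of the 28 S and M phase members (96.4%), while it was lowest in 26.4% of all genes tested. The exception was Mcm7, which was lowest in Nr2f2 d/d replicate 4. Nr2f2 d/d replicate 3 was highest in 26 of the 28 (92.9%), against 19.2% of all genes tested. The exceptions were Mcm6, highest in Nr2f2 f/f replicate 1, and Tyms, highest in Nr2f2 f/f replicate 4. These 2 libraries were picked out after the values were seen, so the counts are a description without a test. Members of the same pathway in 1 library are not independent of each other.

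**Figure D3:**
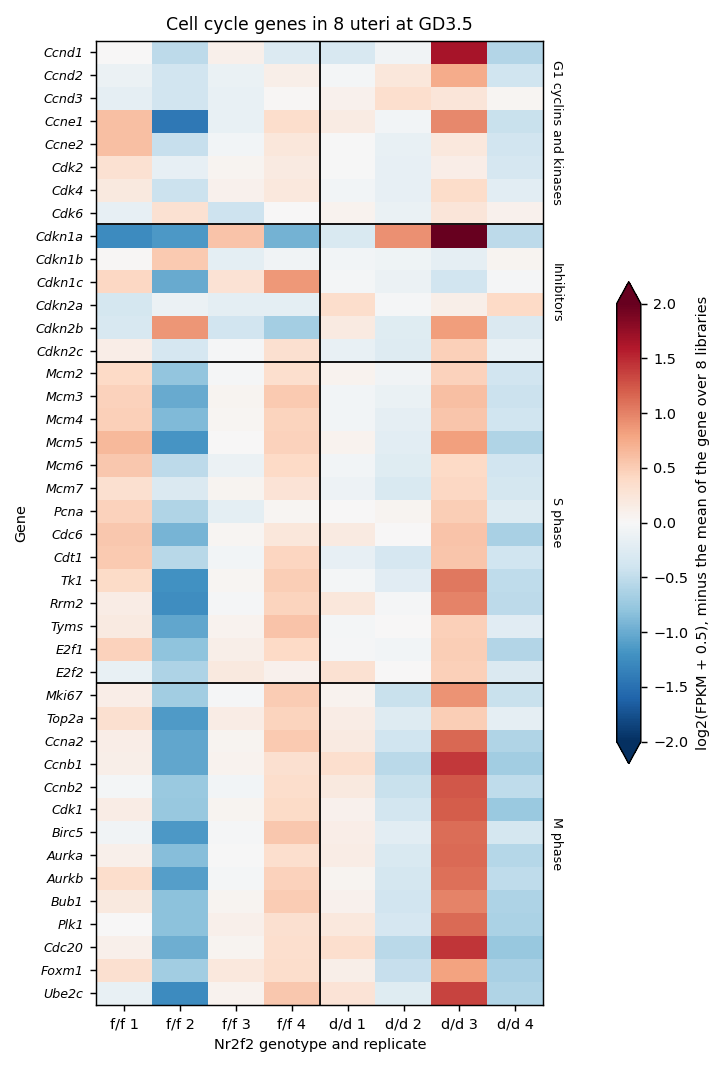
Levels of all 42 members in the 8 libraries as log2(FPKM + 0.5) minus the mean of the gene over the libraries, with red above and blue below the mean, by role. Among the S and M phase members, Nr2f2 f/f replicate 2 is blue and Nr2f2 d/d replicate 3 is red in nearly every gene, and the remaining 3 libraries of each genotype are paler.

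The median deviation of the 14 M phase members from their mean over the libraries was 0.12, -0.92, 0.05 and 0.41 on the log2 scale in control replicates 1 to 4. In the Nr2f2 d/d replicates, in the same order, it was 0.16, -0.38, 1.13 and -0.60. For the 14 S phase members it was 0.46, -0.84, 0.04 and 0.41 in the controls and -0.03, -0.10, 0.52 and -0.40 in the Nr2f2 d/d libraries. In Nr2f2 f/f replicate 2 both phases were low to a like degree. In Nr2f2 d/d replicate 3 the M phase genes stood further out than the S phase genes, by 0.61 on the log2 scale or 1.52-fold. Relative to the mean of the other 3 libraries of its genotype, Nr2f2 d/d replicate 3 was 1.51-fold for Top2a to 3.31-fold for Cdc20 among M phase members and 1.47-fold for Pcna to 2.53-fold for Tk1 among S phase members. The corresponding ratios of Nr2f2 f/f replicate 2 were 0.352 for Aurkb to 0.543 for Ccnb2, and 0.295 for Cdc6 to 0.699 for Mcm7.

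The spread within genotypes differed by role. The median pooled SD within a genotype was 0.67 on the log2 scale for the M phase members, 0.58 for the inhibitors, 0.52 for the S phase members and 0.32 for the G1 cyclins and kinases, and it was 0.18 for all genes tested. Both libraries also deviated most over the whole transcriptome, with a median absolute deviation of 0.222 in Nr2f2 f/f replicate 2 and 0.170 in Nr2f2 d/d replicate 3, against 0.0886 to 0.134 in the other 6. Depth was 61450000 fragments in Nr2f2 f/f replicate 2 and 92750000 in Nr2f2 d/d replicate 3, and 61400000 and 91000000 fragments in replicate 4 of the same genotypes. The summed stromal markers reached 2379 FPKM in Nr2f2 d/d replicate 3 against 1527 to 1685 FPKM in the other Nr2f2 d/d libraries, mostly through Col1a1, and Foxj1, a gene of ciliated cells, was at 2.21 FPKM there against 0.120 to 0.304 FPKM elsewhere. The sum of the 5 oviduct markers was the lowest of the 8 there, at 65.8 FPKM against 76.8 to 135 FPKM, mostly through Ovgp1 at 2.41 FPKM against 8.23 to 53.7 FPKM, while Tppp3 and Pax8 were within the range of the other libraries. In Nr2f2 f/f replicate 2 the sums of the epithelial, stromal and leukocyte markers were the highest of the 4 controls, and the sum of the smooth muscle markers was the lowest, at 1225 FPKM against 1393 to 1741 FPKM. The part of depth and of these markers in the library pattern was not tested.

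**Figure D4:**
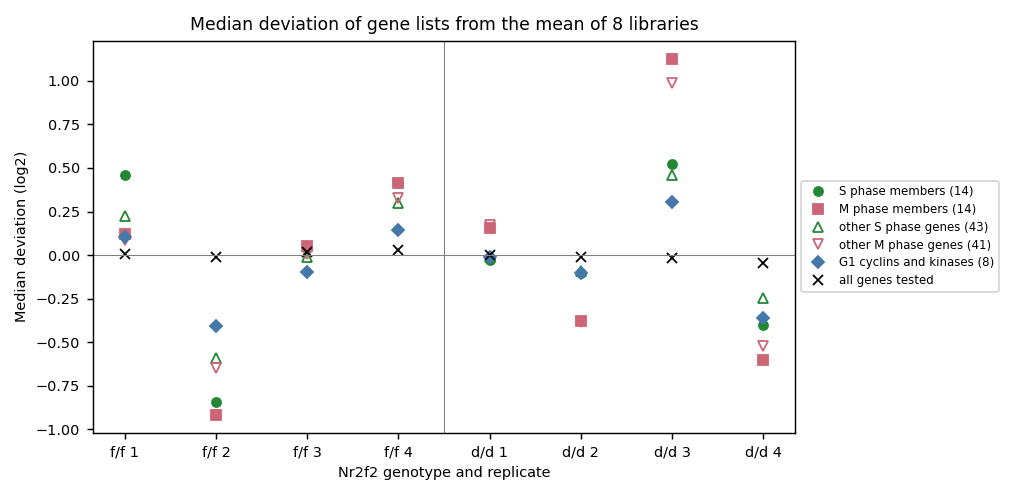
Median deviation of gene lists from the mean over the 8 libraries (log2 scale) in each library, with filled symbols for the members and open symbols for other genes of the same phases. M phase members are at -0.92 in Nr2f2 f/f replicate 2 and at 1.13 in Nr2f2 d/d replicate 3, while the median of all genes tested is near 0 throughout.

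Each library was also left out in turn. A low control and a high Nr2f2 d/d library both raise the difference between the genotypes, so leaving out either of the 2 libraries picked above must lower it, and the values below only show by how much. With all 8 libraries, 21 of the 28 S and M phase members had a log2 fold change above 0, with a median of 0.11. With Nr2f2 f/f replicate 2 left out, 4 of the 28 were above 0 and the median was -0.20. Leaving out Nr2f2 d/d replicate 3 gave 5 of the 28 above 0 and a median of -0.19. Without Nr2f2 d/d replicate 4, the lowest of the Nr2f2 d/d libraries, 25 of the 28 were above 0 and the median was 0.27. Over the 6 fits that kept both of those libraries, 22 to 25 of the 28 were above 0, with medians of 0.11 to 0.27. The median of all genes tested stayed between -0.03 and -0.01 in these fits, and in none of them did a member reach an adjusted p under 0.05.

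**Figure D5:**
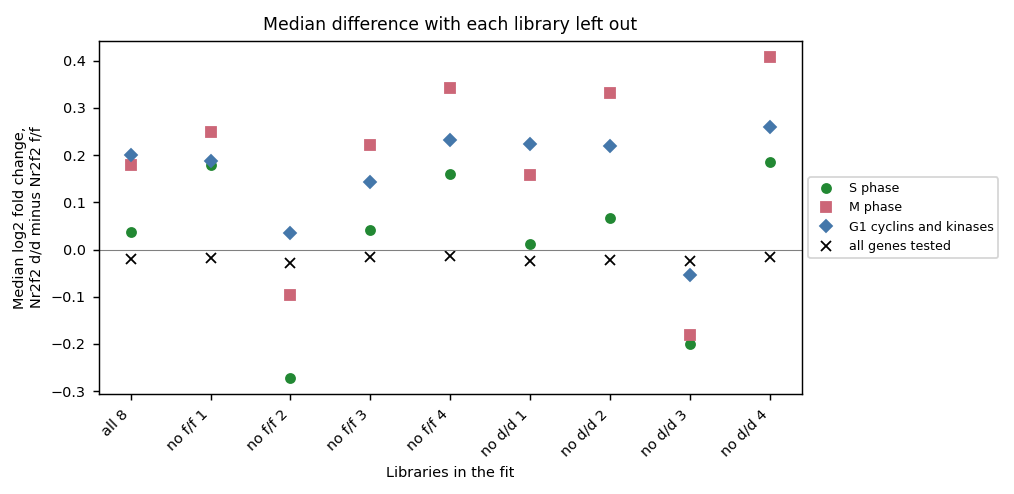
Median log2 fold change, Nr2f2 d/d minus Nr2f2 f/f, of the S phase, M phase and G1 members and of all genes tested, with all 8 libraries and with each library left out. The M phase median runs from -0.18 without Nr2f2 d/d replicate 3 to 0.41 without Nr2f2 d/d replicate 4.

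The promoters of the members were searched for letters known from genes of each phase. E2F factors bind a short GC-rich site in promoters of replication genes, whereas promoters of mitotic genes are known for CCAAT boxes, bound by NF-Y, and for the cell cycle homology region (CHR), bound by the DREAM and MuvB complexes. The letters CCAAT, those of the CHR with TTTGAA, and those of E2F with TTTCCCGC, TTTGGCGC, TTTCGCGC or TTTGCCGC were searched on both strands in the 250 bases before each RefSeq start, and 34 of the 42 members had such a window. CCAAT was present in 10 of 11 M phase windows (90.9%), 10 of 15 S phase windows (66.7%) and 33.8% of all 32851 windows. TTTGAA was present in 6 of the 11 M phase windows (54.5%), 2 of the 15 S phase windows (13.3%) and 16.0% of all windows. An E2F core was present in 1 of the 11 M phase windows (9.09%), 4 of the 15 S phase windows (26.7%) and 1.86% of all windows. In the G1 cyclins and kinases and in the inhibitors an E2F core was present in 1 of 6 windows (16.7%) and 1 of 8 windows (12.5%), and TTTGAA in 0 and 1. Shares were lower in the wider lists than in the members of the same phase: CCAAT was in 70.3% and TTTGAA in 29.7% of 37 windows of other M phase genes, and CCAAT was in 21 and an E2F core in 6 of 43 windows of other S phase genes, where the former is 48.8%. A match of letters is a description and not a binding site.

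The 120 bases before the RefSeq start (GRCm38.p6, all on the minus strand and written 5′ to 3′ along the gene) are shown for 3 M phase genes that were highest in Nr2f2 d/d replicate 3, and for Mcm6, an S phase gene that was not highest there. The windows are chr9:70421555-70421674 for Ccnb2, chr4:118437344-118437463 for Cdc20, chr10:69352913-69353032 for Cdk1 and chr1:128359706-128359825 for Mcm6. Capitals mark CCAAT on either strand (the reverse complement reads ATTGG), the CHR letters TTTGAA on either strand, and the E2F letters on either strand. In the first run of capitals of Mcm6 a pair of E2F matches on opposite strands overlap.
Ccnb2: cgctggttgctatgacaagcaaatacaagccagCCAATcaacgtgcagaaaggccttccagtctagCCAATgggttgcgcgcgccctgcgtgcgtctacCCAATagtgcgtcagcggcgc
Cdc20: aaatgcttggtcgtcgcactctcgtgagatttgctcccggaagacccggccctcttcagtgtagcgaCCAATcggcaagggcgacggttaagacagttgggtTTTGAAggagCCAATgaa
Cdk1: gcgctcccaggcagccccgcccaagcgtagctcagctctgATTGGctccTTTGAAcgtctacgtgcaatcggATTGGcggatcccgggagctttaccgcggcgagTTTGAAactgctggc
Mcm6: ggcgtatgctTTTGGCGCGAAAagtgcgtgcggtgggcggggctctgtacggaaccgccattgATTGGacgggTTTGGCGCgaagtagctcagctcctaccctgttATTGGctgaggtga

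Cdc20 and Cdk1 hold CCAAT boxes and TTTGAA close to the start, Ccnb2 holds 3 CCAAT boxes in this stretch, and Mcm6 holds E2F letters beside its CCAAT boxes. All 4 genes were lowest in Nr2f2 f/f replicate 2. Levels of Cdc20 were 12.3, 5.53, 11.9 and 14.6 FPKM in Nr2f2 f/f replicates 1 to 4, against 14.5, 7.73, 31.7 and 6.57 FPKM in Nr2f2 d/d replicates 1 to 4. For Cdk1 they were 11.7, 5.98, 10.9 and 13.8 FPKM, and 11.2, 7.99, 24.9 and 6.09 FPKM. Mcm6 was at 23.0, 10.8, 14.5 and 21.0 FPKM and at 15.1, 13.2, 20.8 and 11.96 FPKM. The other S phase members with E2F letters, Mcm5, Mcm7 and Cdc6, and also Cdk1, which has them further upstream, were highest in Nr2f2 d/d replicate 3.

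A wider set of 122 other cell cycle genes, none of them a member, was taken from lists of S phase, M phase and G1 genes. In it 77 had a log2 fold change above 0 and 45 below, with a median of 0.05, and 1 passed an adjusted p of 0.05, against 2.62% of all genes tested. The 43 other S phase genes (26 above 0, 17 below, median 0.03) and the 41 other M phase genes (33 above 0, 8 below, median 0.12) held no gene past this threshold and none at an unadjusted p under 0.05. Of the 38 other G1 genes, 18 were above 0 and 20 below, with a median of -0.04, and 1 passed the threshold. Nr2f2 d/d replicate 3 was highest in 39 of the 41 other M phase genes (95.1%) and in 26 of the 43 other S phase genes (60.5%), against 19.2% of all genes tested. Nr2f2 f/f replicate 2 was lowest in 28 of the 41 (68.3%) and in 38 of the 43 (88.4%), against 26.4% of all genes tested. The gap of M over S phase in Nr2f2 d/d replicate 3 was 0.53 on the log2 scale in these genes.

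The 1 gene past the threshold was Myc, a transcription factor that drives entry into the cycle. It was at 51.7, 66.8, 49.6 and 55.1 FPKM in Nr2f2 f/f replicates 1 to 4 and at 26.3, 32.6, 28.7 and 28.2 FPKM in Nr2f2 d/d replicates 1 to 4. It fell by 0.93 on the log2 scale (SE 0.109, interval -1.18 to -0.68, limma adjusted p = 0.00887), and the groups were far apart. With the replicate number as a block it did not pass the threshold (limma adjusted p = 0.0556). The library pattern of the S and M phase members was not seen in Myc, which was highest in Nr2f2 f/f replicate 2.

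Tfdp2, a partner with which E2F factors bind DNA, was at 6.81, 6.76, 6.87 and 7.27 FPKM in Nr2f2 f/f replicates 1 to 4 and at 5.58, 4.55, 5.87 and 5.30 FPKM in Nr2f2 d/d replicates 1 to 4. Its groups did not overlap, but it did not pass the adjustment (log2 fold change -0.36 ± 0.0865 (SE), limma adjusted p = 0.0716). Gadd45g, a stress gene linked to arrest of the cycle, was at 37.8, 13.9, 33.7 and 36.04 FPKM in Nr2f2 f/f replicates 1 to 4 and at 69.8, 57.7, 139 and 49.4 FPKM in Nr2f2 d/d replicates 1 to 4. Unlike in Tfdp2, every Nr2f2 d/d library was above every control (log2 fold change 1.34 ± 0.404 (SE), limma adjusted p = 0.116). As in most S and M phase members, Nr2f2 f/f replicate 2 was lowest and Nr2f2 d/d replicate 3 was highest. Myc and Gadd45g were the 2 of the 122 genes past the study's threshold, against 8.8% of all genes tested. Groups did not overlap in 3 of the 122 genes, against 15.4% of all genes tested, and 5 of the 122 had an unadjusted p under 0.05, against 21.2%.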

How the data were processed

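RNA of whole GD3.5 uteri was measured in 8 libraries. According to the study's methods and processing notes, the authors trimmed adaptors with cutadapt (1.12), used STAR (2.5.2b) to align 76-bp read pairs to mm10, and counted fragments with featureCounts (1.5.0-p1). Cufflinks (2.0.2) is named in the notes with no role. The authors deposited FPKM per gene. Their annotation, strand setting and FPKM formula are not given in the sources used here. The authors' test on counts, DESeq2, could not be repeated on FPKM.

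Groups and replicate numbers are those of the sample titles, and all 8 columns matched a sample by name. The scale of the tests was log2(FPKM + 0.5), on which changes of low genes are understated. A filter on the mean (0.5 FPKM or more) left 14323 genes, which were tested, two-sided, with limma 3.58.1 in R 4.3.3 (lmFit, eBayes with trend, genotype as the 1 factor) and Benjamini-Hochberg adjustment. Single genes were also compared by a two-sided exact permutation test over all 70 arrangements of the libraries. No set test was run. Nothing in the labels ties libraries to batches. The p-values weigh a difference against the spread between libraries, 1 per mouse, which does not separate the mice from library preparation.

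Depth was estimated from short genes of 1 exon, whose FPKM became whole fragments (within 0.05) in 87.9% to 91.6% of values at 1 total per library, against 3.61% to 4.64% at other totals. A floor of 3 fragments corresponds to 0.0324 to 0.0489 FPKM for a length of 1 kb and covers counting error only. Exon overlap came from GENCODE vM21, which is on the authors' build, and promoters from RefSeq (GRCm38.p6). Besides the overlaps given above, Ccne2, Mcm7 and Ccna2 shared 17.4%, 12.6% and 12.5% of their exon bases with other genes. Tables were made with Python 3.11.15.

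The members and lists were chosen with earlier results of these data known, so no list gives independent support. Values in every library are given for Mki67, Top2a, Pcna, Ccnd1 and Cdkn1a, for any member past either threshold, for the 3 members with the smallest p and the most abundant member of each role, for members under the filter, and for the wider genes past the adjusted threshold or with the 3 smallest p. Ccnb2, Cdc20, Cdk1 and Mcm6 were chosen for their promoters after their values were seen. The alternatives were 0.1 or 1 FPKM added before the log2, no filter or a stricter one at 1 FPKM, median-ratio or quantile scaling, eBayes without trend or robust, the replicate number as a block, and each library left out in turn.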

Additional observations from a re-analysis of the deposited data

Results flagged for a closer look

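In the 42 members, 84 groups of 4 libraries were searched for a single library far from the other 3 of its genotype, by Dixon's criterion at 95%. It marked 4 groups, about as many as chance alone marks at 1 in 20. Ccnd1 was at 61.6 FPKM in Nr2f2 d/d replicate 3, against 12.7 to 18.3 FPKM in the other Nr2f2 d/d libraries. Cdkn2c, which encodes p18, was at 13.1 FPKM in the same library, against 7.65 to 8.31 FPKM. Cdkn1a was at 13.2 FPKM in Nr2f2 f/f replicate 3, against 3.35 to 4.30 FPKM in the other controls. Cdkn2b, which encodes p15, was at 2.39 FPKM in Nr2f2 f/f replicate 2, against 0.478 to 0.750 FPKM.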

How the results depend on the processing

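No member passed an adjusted p of 0.05 under any of the 17 alternatives. The number past the study's threshold was 0 with all libraries, 1 with the replicate block (Cdkn1a, log2 fold change 1.4, limma adjusted p = 0.166) and 0 to 1 with a library left out: Cdkn1c without Nr2f2 f/f replicate 2, and Cdkn1a without Nr2f2 f/f replicate 3 (1.82) or Nr2f2 d/d replicate 4 (1.81). The number of wider genes past an adjusted p of 0.05 was 1, and 0 with the replicate block, where Myc had a limma adjusted p of 0.0556. With 4 against 4 libraries the block cannot change a log2 fold change, so -0.93 for Myc was fixed and only the p-values could move. Over all genes there were 375 calls without that block and 1 with it. Its numbers are those of the titles, and the labels do not say whether they pair the mice. Deviations of same-numbered libraries correlated at -0.204, -0.172, 0.0453 and -0.0403. Such correlations over all genes cannot decide whether the mice were paired, since a pairing may act on only part of the genes. The column names number some mice differently, and by them 3 pairs share a number, with correlations of -0.204, 0.1485 and -0.0403. With 1 library left out, calls over all genes were 42 to 348, and fewest without Nr2f2 d/d replicate 2. The S and M phase median was 0.10 to 0.13 under the other settings and -0.20 to 0.27 with a library left out. The median of G1 cyclins, kinases and inhibitors was 0.14, 0.12 to 0.19 under the other settings and -0.10 to 0.21 with a library left out, below 0 without Nr2f2 d/d replicate 3. The cause of these changes was not tested. At the depths here Cdkn2a rests on an estimated 11 to 64 fragments per library, and the median interval of the S and M phase members reached 0.86 on either side of the log2 fold change.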

Other observations

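Trp53, the gene of p53, and 4 of its known targets in the wider G1 list were set beside Cdkn1a after their values were seen. They did not share 1 order over the libraries. Mdm2, the ubiquitin ligase that degrades p53, was at 15.3, 16.4, 17.9 and 16.3 FPKM in Nr2f2 f/f replicates 1 to 4 and at 17.3, 16.9, 29.6 and 15.7 FPKM in Nr2f2 d/d replicates 1 to 4, highest, like Cdkn1a, in Nr2f2 d/d replicate 3. Ccng1, which encodes cyclin G1, was at 23.7, 27.9, 73.1 and 61.9 FPKM in Nr2f2 f/f replicates 1 to 4 and at 43.5, 68.4, 72.3 and 44.0 FPKM in Nr2f2 d/d replicates 1 to 4. Its highest libraries, Nr2f2 f/f replicate 3 and Nr2f2 d/d replicates 3 and 2, were also those of Cdkn1a, in another order. Gadd45a, a stress gene, was lowest in Nr2f2 d/d replicate 3, at 32.3 FPKM against 33.1 to 90.5 FPKM elsewhere, and Btg2, an antiproliferative gene, was at 32.8 FPKM there against 28.4 to 40.8 FPKM. Trp53 was at 41.5 to 49.6 FPKM in Nr2f2 f/f and 33.1 to 45.1 FPKM in Nr2f2 d/d (log2 fold change -0.27). None of the 5 passed an adjusted p of 0.05 (limma adjusted p = 0.211 for Trp53 and 0.535 to 0.996 for the others).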
